A study of Mus musculus with 4 samples.

Results

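Nrgn, Slc6a4, Ctla2a, Ctla2b, Syt13 and Ctnnd2 are 6 of the 26026 genes in an RNA-seq table of mouse bone marrow cultures, and were chosen by their RPKM values (reads scaled to gene length and library total), which were higher at day 5 than at day 3 in both wild-type and Nfkb1 knockout cells. Those values are therefore given as a description, with no test. The cells are labelled BMDC and were grown with Flt3 ligand at 100 ng/mL, a cytokine under which marrow progenitors develop into dendritic cells. The groups were wild-type cells (C57/B16) at day 3, Nfkb1-/- cells (C57/B16) at day 3, wild-type cells at day 5 and Nfkb1-/- cells at day 5, all with Flt3 ligand and with medium replenished at day 3. Nfkb1 encodes p105, the precursor of the NF-kB subunit p50, and the series' design text places these cultures in a question about p50 and RelA. Each group had 1 library of polyadenylated RNA, so no difference between libraries has a replicate check. The number of animals behind each culture is not given in the sources used here.

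These genes are best known from other settings. Nrgn encodes neurogranin, a small neuronal protein that binds calmodulin and is a substrate of protein kinase C, and its transcript is also known from platelets. Slc6a4 encodes the serotonin transporter, which takes up serotonin into neurons and platelets. Ctla2a and Ctla2b are similar genes that lie close together, whose products resemble the propeptide of cathepsin L-like cysteine proteases, and Ctla2a inhibits such proteases. Syt13 encodes an atypical synaptotagmin, a family of membrane trafficking proteins best known for calcium-triggered vesicle release. Ctnnd2 encodes delta-catenin, a p120-catenin relative that binds cadherins and is best known in neurons. The table lists them as Nrgn (NM_022029, chromosome 9), Slc6a4 (NM_010484, chromosome 11), Ctla2a (NM_001145799) and Ctla2b (NM_001145801), both on chromosome 13, Syt13 (NM_030725, chromosome 2) and Ctnnd2 (NM_008729, chromosome 15), with chromosomes taken from RefSeq.

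The libraries held between 15255070 and 16215214 reads, of which 70.7% to 75.7% fell in the listed genes; totals and reads per gene were recovered from the RPKM steps. The RPKM of Nfkb1 itself was 74.8 (wild type) and 56.0 (knockout) at day 3, and 114 and 64.7 at day 5, so the gene-level value was lower in the knockout libraries but not near 0. All 19 dendritic cell markers were measured in these libraries, among them Flt3, Itgax and Cd74. Their summed level ran from 2007 RPKM (knockout, day 3) to 4976 RPKM (wild type, day 5). Most of that sum came from the antigen presentation genes Cd74, H2-Aa and H2-Ab1, at 1830, 1187 and 933 RPKM in wild type at day 5. Xcr1 and Zbtb46 stood at 14.2 and 3.69 RPKM there.

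Ctla2a and Ctla2b are the pair in which sequence bears on the reading of the values, because the 2 copies are alike and lie close together on chromosome 13. The 250 bases before each start site are printed below on the minus strand (RefSeq, GRCm38.p6, chr13:60936626-60936875 for Ctla2a and chr13:60897448-60897697 for Ctla2b), with capitals for bases that differ or face a gap in the aligned part.
Ctla2a: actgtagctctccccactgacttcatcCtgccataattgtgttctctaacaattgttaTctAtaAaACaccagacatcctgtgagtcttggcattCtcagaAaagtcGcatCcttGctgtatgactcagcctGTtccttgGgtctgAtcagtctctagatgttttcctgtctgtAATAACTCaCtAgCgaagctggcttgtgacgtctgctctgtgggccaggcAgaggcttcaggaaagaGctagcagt
Ctla2b: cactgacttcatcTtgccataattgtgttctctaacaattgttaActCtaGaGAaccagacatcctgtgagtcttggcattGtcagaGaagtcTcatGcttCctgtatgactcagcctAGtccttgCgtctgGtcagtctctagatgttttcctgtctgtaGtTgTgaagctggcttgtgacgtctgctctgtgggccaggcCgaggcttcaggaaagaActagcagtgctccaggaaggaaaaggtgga
The windows aligned over 228 bases, of which 208 were equal (91.2%), with a longest shared run of 36 bases. Their transcripts were 88.8% identical over 786 aligned bases, and 6.19% of the 50-base stretches of Ctla2a and 7.85% of those of Ctla2b occur in the other copy. How reads that map to both copies were treated is not given in the sources used here, nor is the read length, so the split of reads between them is uncertain.

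A few short motifs were searched on both strands in windows from 250 bases before to 50 bases after each start; 5 of the 6 genes have such a window in the RefSeq table. The GATA motif AGATAA was found only in Ctla2a, as its reverse complement TTATCT at bases 56 to 61 of the printed sequence, and is present in 11.2% of all 32851 windows. Counted from 1 at the 5′ end of the Ctla2a sequence, T59A is the substitution in the aligned bases of Ctla2b. The RUNX motif TGTGGT (16.8% of all windows) and the ETS motif CCGGAAG (8.86%) were found in 0 of the 5 genes. An NF-kB-like pattern of 3 G, 5 bases of any kind and 2 C was found in Slc6a4 and Ctla2b, and in 50.8% of all windows. A match describes letters in a window, not a bound site.

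Levels are given as RPKM, which is per gene length, and differences as log2(RPKM + 1) over the 11786 genes whose mean across libraries reached 1 RPKM, called measured genes below. A gene was counted as higher or lower when that difference was at least 1. A ratio is followed by its 95% exact interval, computed from the recovered reads. It is a Clopper-Pearson interval, except where the knockout's day 5 to day 3 ratio is divided by that of wild type. There it is the exact conditional interval of an odds ratio. Each such interval covers counting error only and may be too narrow even for that, since reads counted without molecular identifiers are not separate molecules. Where 4 values stand in a row, their order is wild type at day 3, knockout at day 3, wild type at day 5, knockout at day 5.

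Nrgn had the highest level of the 6 genes in every library. At day 3 the wild-type library had 12.5 RPKM (246 reads) and the knockout library 10.9 RPKM (229 reads), and at day 5 they had 84.4 RPKM (1758 reads) and 31.7 RPKM (632 reads). The day 5 libraries were both above the day 3 libraries, and wild type at day 5 stood apart. The ratio of day 5 to day 3 was 6.76 (5.92 to 7.76) in wild type and 2.91 (2.49 to 3.40) in the knockout, or 2.66 and 1.46 on the log2 scale.

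Of 15 measured partners and targets of calmodulin (20 listed), 0 were higher at day 5 by the size rule in either genotype, against 1.8% of all measured genes in wild type and 0.594% in the knockout. Prkca, which encodes a protein kinase C, differed between the days by 0.84 in wild type and -0.20 in the knockout on the log2 scale, and at day 5 the knockout, at 4.56 RPKM, was below wild type by a log2 difference of -1.23. Gap43, a calmodulin-binding relative of neurogranin in neurons, was at or below 0.101 RPKM in every library.

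Slc6a4 had 1.38 RPKM (58 reads) in the wild-type library and 1.84 RPKM (82 reads) in the knockout library at day 3. At day 5 these were 13.4 RPKM (595 reads) and 6.45 RPKM (273 reads). The knockout was the higher library at day 3 and the lower one at day 5. The ratio of the days was 9.71 (7.41 to 12.9) in wild type and 3.51 (2.73 to 4.54) in the knockout, or 2.60 and 1.39 on the log2 scale.

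The rest of the serotonin pathway was mostly below the filter, with 2 of 14 listed genes measured. By the size rule 0 of them were higher at day 5 in either genotype. Over all measured genes the shares were 1.8% in wild type and 0.594% in the knockout. Slc18a2, which loads amines into vesicles, stood at 4.07, 3.78, 5.51 and 2.17 RPKM. Maoa, which breaks down serotonin, ran from 0.820 to 1.50 RPKM. Tph1, which carries out the first step of serotonin synthesis outside the brain, stood at 1 read, the lowest value of the table, in every library.

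At day 3, Ctla2a had 4.62 RPKM (94 reads) in the wild-type library and 5.22 RPKM (113 reads) in the knockout library, and 37.2 RPKM (801 reads) and 13.2 RPKM (271 reads) at day 5. Its copy Ctla2b stood at 2.63 RPKM (46 reads) and 3.92 RPKM (73 reads) at day 3, and at 20.9 RPKM (386 reads) and 10.5 RPKM (185 reads) at day 5. Both copies had the same order of the 4 libraries, with wild type at day 5 highest and wild type at day 3 lowest. The ratio of the days for Ctla2a was 8.07 (6.51 to 10.1) in wild type and 2.53 (2.02 to 3.17) in the knockout. For Ctla2b it was 7.94 (5.84 to 11.0) in wild type and 2.67 (2.02 to 3.55) in the knockout.

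The level of Ctla2a over Ctla2b was 1.76 (1.22 to 2.56) in wild type at day 3 and 1.78 (1.58 to 2.02) at day 5. The knockout libraries gave 1.33 (0.982 to 1.81) at the earlier and 1.26 (1.04 to 1.53) at the later day. The day 5 intervals do not overlap between genotypes and the day 3 intervals do, with counting error only and 1 library each. How reads shared by both copies entered these levels is not known, so the ratio of the copies is uncertain. Among the genes around the pair, Tpbpb, between the copies in the reference order, and Tpbpa and Ctsll3 near them stood at 1 read, the lowest value of the table, in every library. The gene next to Ctla2b on the other side, 4930486L24Rik, had 5, 8, 32 and 4 reads.

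Other cysteine protease inhibitors were mixed. Of 7 measured cystatins and stefins besides the Ctla2 pair (12 listed), 1 was higher and 4 were lower at day 5 in wild type, and 0 were higher and 4 were lower in the knockout. Of all measured genes, 2.05% were lower at day 5 in wild type and 3.01% in the knockout. The higher one was Cst3, cystatin C, at 397 RPKM at day 3 and 869 RPKM at day 5 in wild type, against 397 and 445 RPKM in the knockout. The 4 lower genes were the stefins Stfa1, Stfa2, Stfa2l1 and Stfa3. Stfa2l1 had 400, 254, 124 and 20 reads, while Stfa1, Stfa2 and Stfa3 had at most 39 reads in a library and 1 to 5 at day 5. Of 9 measured cysteine cathepsins, the proteases such inhibitors act on, 0 were higher at day 5 in either genotype. Over all measured genes the shares were 1.8% in wild type and 0.594% in the knockout. By the same rule 0 cathepsins were lower in wild type and 1, Ctsk at -1.18, in the knockout. Ctsl, the gene of cathepsin L, stood at 45.7, 62.0, 64.9 and 50.1 RPKM.

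Syt13 was the lowest of the 6 genes in every library. At day 3 the wild-type library had 0.175 RPKM (10 reads) and the knockout library 0.427 RPKM (26 reads), against 3.32 RPKM (201 reads) and 2.42 RPKM (140 reads) at day 5. The ratio of the days was 19.0 (10.1 to 40.3) in wild type and 5.67 (3.71 to 8.98) in the knockout, while the log2(RPKM + 1) differences, which understate low genes, were 1.88 and 1.26. Its wide intervals follow from the 10 and 26 reads at day 3. Of 7 other measured synaptotagmins and relatives (27 listed), 0 were higher at day 5 in either genotype. The shares over all measured genes were 1.8% in wild type and 0.594% in the knockout. In all libraries 7 of the 27 stood at 1 read. Sytl4, a granule-docking relative, stood at 1.43, 1.53, 3.54 and 1.14 RPKM.

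At day 3, Ctnnd2 had 2.83 RPKM (259 reads) in the wild-type library and 2.72 RPKM (265 reads) in the knockout library, and 8.43 RPKM (816 reads) and 7.43 RPKM (687 reads) at day 5. The genotypes lay close to each other at both days. The ratio of the days was 2.98 (2.59 to 3.44) in wild type and 2.73 (2.37 to 3.16) in the knockout, or 1.30 and 1.18 on the log2 scale. Of 8 other measured catenins and classical cadherins (16 listed), 0 were higher or lower at day 5 by the size rule in either genotype. Ctnnd1, the gene of p120-catenin, ran from 8.36 to 10.4 RPKM, and Ctnnb1, the gene of beta-catenin, from 65.1 to 89.2 RPKM.

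**Figure D1:**
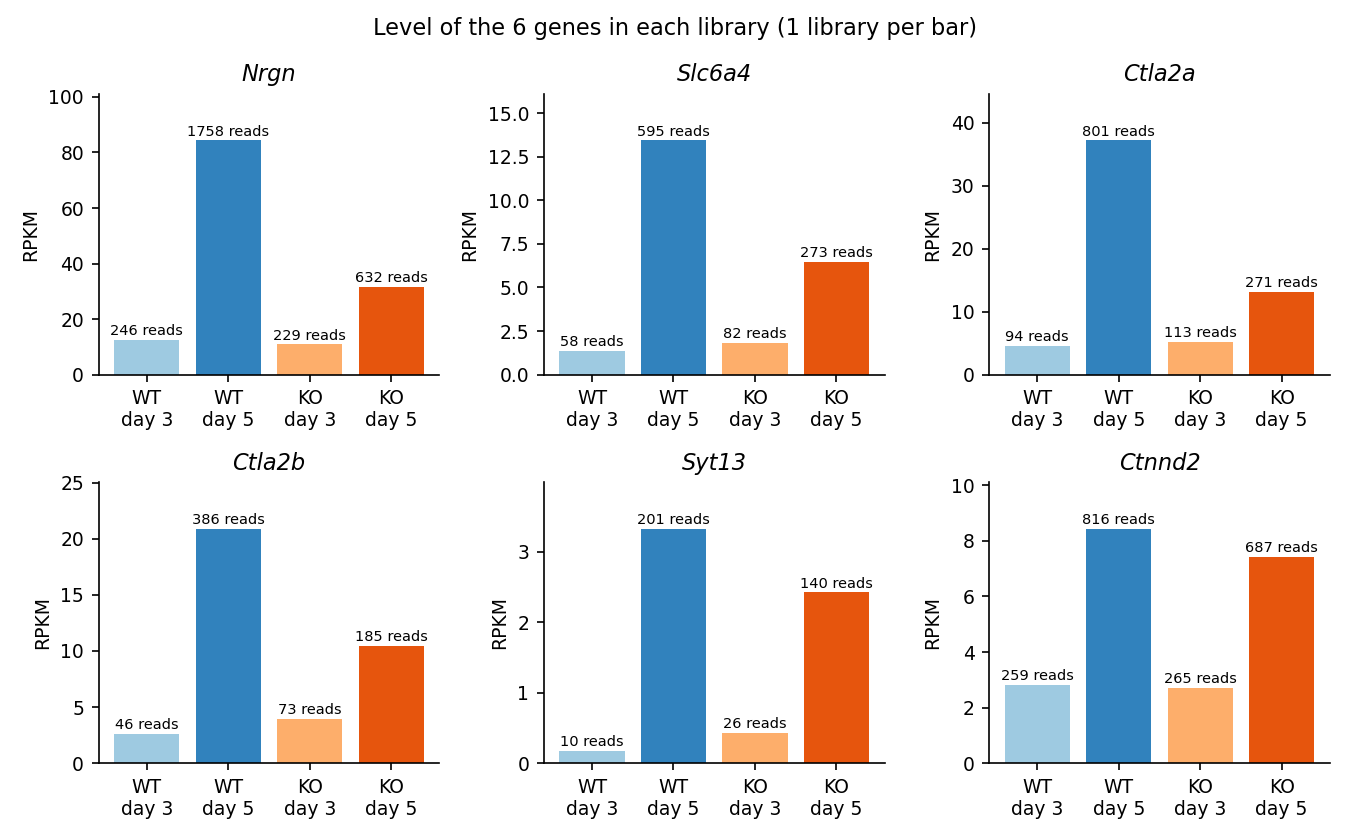
RPKM of each of the 6 genes, one panel per gene with its own linear axis from 0; each bar is 1 library (WT wild type, KO knockout), has no error bar and carries its recovered reads. Wild type at day 5 is the highest bar in every panel, from 3.32 RPKM for Syt13 to 84.4 RPKM for Nrgn.

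By the size rule, all 6 genes were higher at day 5 in wild type, where 1.8% of all measured genes were, and all 6 in the knockout, where 0.594% were. Both held for 18 genes, 0.153% of those measured; since the rule used these contrasts, nothing follows from these counts. When genes are ranked by the smaller of their 2 rises, the 6 hold ranks 1, 3, 5, 7, 8 and 9. Mir3112, with at most 8 reads in a library, and the collagen genes Col1a1 and Col1a2 are ranked among them. The last of the 6 is Ctnnd2, with a smaller rise of 1.18, and the next are Mir7657 at 1.15, Gem at 1.14 and Cd7 at 1.12. With 5 RPKM instead of 1 added before the logarithm, 4 of the 6 were past the size rule in wild type (Syt13 at 0.69 and Ctnnd2 at 0.78 were not) and 1, Nrgn, in the knockout.

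**Figure D2:**
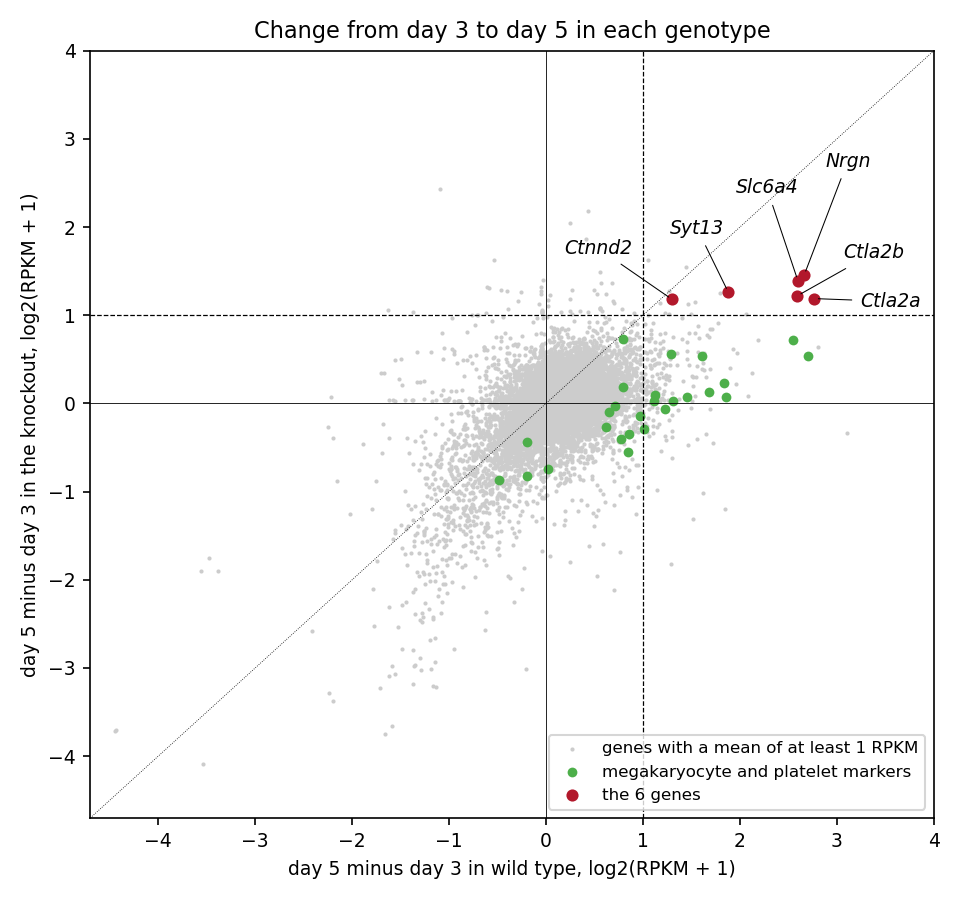
Difference between day 5 and day 3 in log2(RPKM + 1) for each measured gene, wild type on the horizontal and knockout on the vertical axis; dashed lines mark the size rule of 1 and the dotted line equal differences. The 6 genes (red) lie past both dashed lines by choice and below the dotted line, and the megakaryocyte and platelet markers (green) are at most 0.73 on the vertical axis.

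The rise, the difference from day 3 to day 5, was numerically smaller in the knockout for each of the 6 genes in the deposited values. It is built from both contrasts that chose the genes, so it is a description, with no test, and the intervals give counting error only. Divided by the ratio in wild type, the knockout's day 5 to day 3 ratio was 0.430 (0.349 to 0.529) for Nrgn, 0.361 (0.246 to 0.529) for Slc6a4, 0.313 (0.228 to 0.430) for Ctla2a, 0.336 (0.218 to 0.515) for Ctla2b and 0.298 (0.125 to 0.666) for Syt13. For Ctnnd2 it was 0.915 (0.746 to 1.12), an interval that spans equal rises. After rescaling by the median ratio, the day 5 to day 3 ratio of Ctnnd2 was 2.65 in wild type and 2.69 in the knockout. In RPKM gained, the knockout reached 24.4% of the wild-type gain for Ctla2a, 29.0% for Nrgn, 35.9% for Ctla2b, 38.3% for Slc6a4, 63.4% for Syt13 and 84.0% for Ctnnd2. On the log2 scale 4 of the 6, all but Syt13 (-0.62) and Ctnnd2 (-0.12), had a rise lower by at least 1 in the knockout, against 2.63% of all measured genes. The median over the 6 was -1.21, and over all measured genes -0.14, with 66.7% of all genes below 0. With 5 RPKM added 2 of the 6 were past the size rule.

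At day 3 the knockout was not lower in these genes by the size rule: 0 of 6 were, against 0.882% of all measured genes. The knockout level divided by the wild-type level was 0.876 (0.728 to 1.05) for Nrgn and 0.963 (0.808 to 1.15) for Ctnnd2. It was 1.13 (0.853 to 1.50) for Ctla2a and 1.33 (0.939 to 1.90) for Slc6a4, whose intervals also span 1. Ctla2b at 1.49 (1.02 to 2.21) and Syt13 at 2.45 (1.14 to 5.68) were higher in the knockout library beyond counting error. Under rescaling of the libraries by their median ratio or to the same sum, the interval of Ctla2b spans 1 (0.906 to 1.96 and 0.958 to 2.08), and that of Nrgn lies below 1 (0.648 to 0.936 and 0.685 to 0.990). Of all measured genes, 66.6% were above 0 in this comparison.

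At day 5 all 6 genes were lower in the knockout library beyond counting error. The ratio was 0.354 (0.307 to 0.407) for Ctla2a, 0.376 (0.343 to 0.412) for Nrgn, 0.480 (0.415 to 0.555) for Slc6a4, 0.502 (0.419 to 0.599) for Ctla2b, 0.729 (0.583 to 0.909) for Syt13 and 0.881 (0.795 to 0.976) for Ctnnd2. By the size rule 2 of the 6 were lower, Ctla2a at -1.43 and Nrgn at -1.38, against 3.22% of all measured genes. Slc6a4 at -0.95 and Ctla2b at -0.93 lay just short of it. The median over the 6 was -0.94 and over all measured genes 0.01, with 48.8% of all genes below 0. The wild-type day 5 library enters this comparison, the wild-type rise and the difference of the rises, so they are not separate evidence.

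**Figure D3:**
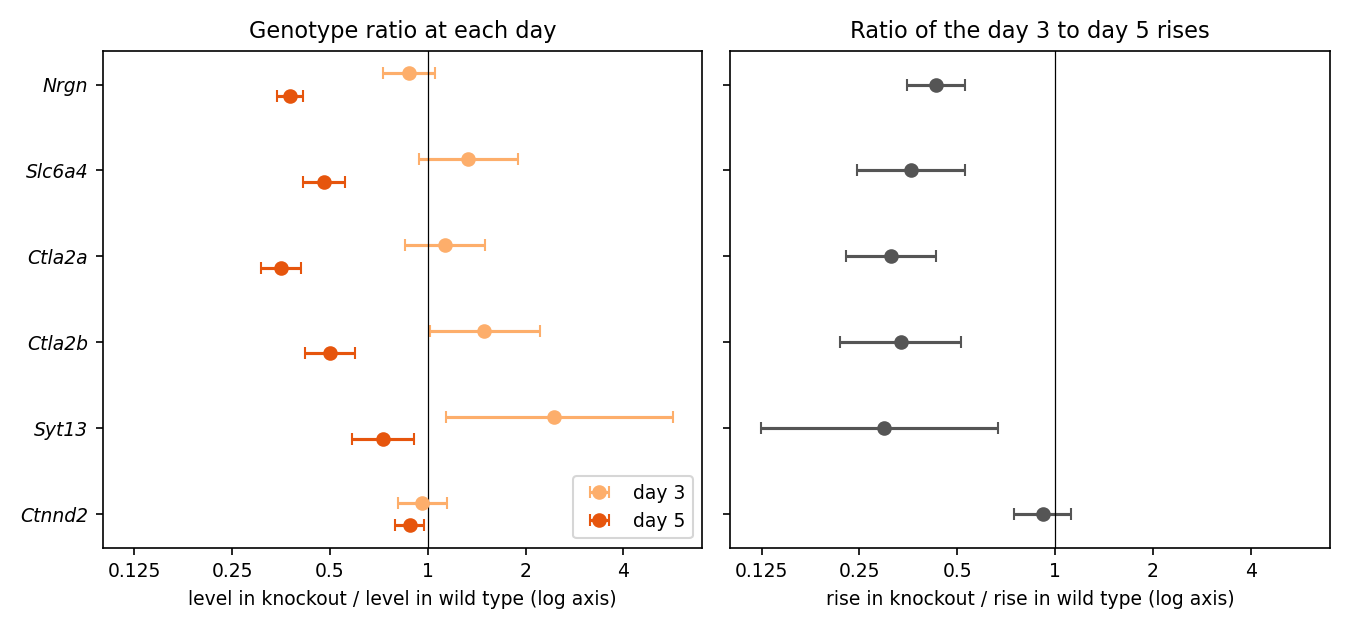
The left panel gives the ratio of knockout level to wild-type level at day 3 and day 5 for the 6 genes. The right panel, labelled as a ratio of rises, gives the knockout's day 5 to day 3 ratio divided by that of wild type. Axes are logarithmic, with 95% exact intervals (counting error only). On the left every day 5 interval is below 1, from 0.354 for Ctla2a to 0.881 for Ctnnd2, and on the right the point of Ctnnd2 is nearest to 1.

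Across both days, limma with genotype and day as terms is the fit that leaves a residual for a test, at 1 degree of freedom. That residual is how far the genotype difference changes between the days, not a spread between replicates. A gene whose genotype difference depends on the day therefore tends to a larger p-value. For the 6 genes that residual is the difference of the rises, built from the contrasts that chose them. Their p-values below, that of Nrgn included, are therefore a description and not evidence about these genes. In limma each gene's variance is also drawn toward a spread pooled over all tested genes. A p-value above 0.05 here does not show that the genotypes are alike. The genotype effect was negative for all 6 genes, although that of Syt13 was 0.25 with 0.1 RPKM added, and ran from -0.78 for Nrgn (limma, Benjamini-Hochberg adjusted p = 0.2323) to -0.03 for Syt13 (limma adjusted p = 0.9655), and none passed 0.05. For Ctla2a it was -0.64 (limma adjusted p = 0.3819). Over all genes limma called 0, with 2278 at an unadjusted p under 0.05. With limma's voom weights on the recovered reads 708 genes were called, among them Nrgn at -1.03 (limma voom adjusted p = 0.03509) and no other of the 6.

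Marker lists of other cell types were set beside these genes. The 6 were chosen for a rise in both genotypes and the lists were not, so nothing follows from lower counts of rising genes in the lists. Of all measured genes, 1.8% were higher at day 5 in wild type and 0.594% in the knockout, and 3.22% were lower in the knockout at day 5. Of 26 megakaryocyte and platelet markers, all measured, 13 were higher at day 5 in wild type and 0 in the knockout, and 14 were lower in the knockout at day 5. Their median difference between the days was 0.99 in wild type and -0.0002 in the knockout, where 13 lay above and 13 below 0, against 0.16 and 0.04 over all genes. The median of knockout against wild type at day 5 was -1.03 for these markers, -0.94 for the 6 genes and 0.01 over all genes. For the difference of the rises the medians were -1.10, -1.21 and -0.14. The summed level of the 26 markers was 834, 958, 1470 and 826 RPKM, and 0 of them stood at 1 read in all libraries. Tubb1, the platelet beta-tubulin, stood at 4.61, 9.48, 35.6 and 14.3 RPKM. Alox12, the platelet lipoxygenase, stood at 2.89, 4.76, 21.7 and 8.50 RPKM. Pf4, a platelet chemokine, stood at 151, 155, 232 and 129 RPKM, with the knockout lower at day 5 than at day 3. Nfe2, a transcription factor of platelet formation, stood at 66.9, 59.7, 47.7 and 32.2 RPKM, lower at day 5 in both genotypes, and 3 of the 26 were below 0 in wild type. Their part in the values of the 6 genes was not tested, and in bulk RNA fewer cells of a type and less RNA per cell cannot be told apart.

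Of 12 measured mast cell and basophil markers (18 listed), 0 were higher at day 5 in either genotype. At day 5 against day 3, 1 (Hdc) was lower in wild type and 7 in the knockout. At day 5, 9 were lower in the knockout than in wild type. Over all measured genes these 3 shares were 2.05%, 3.01% and 3.22%. The summed level of the mast cell and basophil list was 230, 192, 281 and 61.8 RPKM. Prss34, a basophil protease, stood at 72.5, 60.7, 124 and 18.3 RPKM. Among 6 measured stromal and endothelial markers (16 listed), 4 were higher at day 5 in wild type and 2, Col1a1 and Col1a2, in the knockout. Dendritic cell markers were higher at day 5 in 6 of 19 in wild type and 0 of 19 in the knockout, and 13 of 19 were lower in the knockout at day 5. Of 10 measured T and NK cell markers (14 listed), 0 were higher and 3 lower at day 5 in wild type, and 1 was higher and 3 lower in the knockout, with medians of -0.79 and -0.59. At day 3, 5 of the 10 were lower in the knockout, against 0.882% of all measured genes. In that library Cd3e and Cd3g, among the 5, had 10 and 13 reads, and Cd4 had 185. Of 10 measured stem and early progenitor markers, wild type had 1 higher and 0 lower at day 5, and the knockout 0 higher and 1 lower. Neuronal and glial markers were near the floor: 1 of 12, Syp, was measured, 4 stood at 1 read in all libraries, and their sum ran from 0.989 to 2.82 RPKM.

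**Figure D4:**
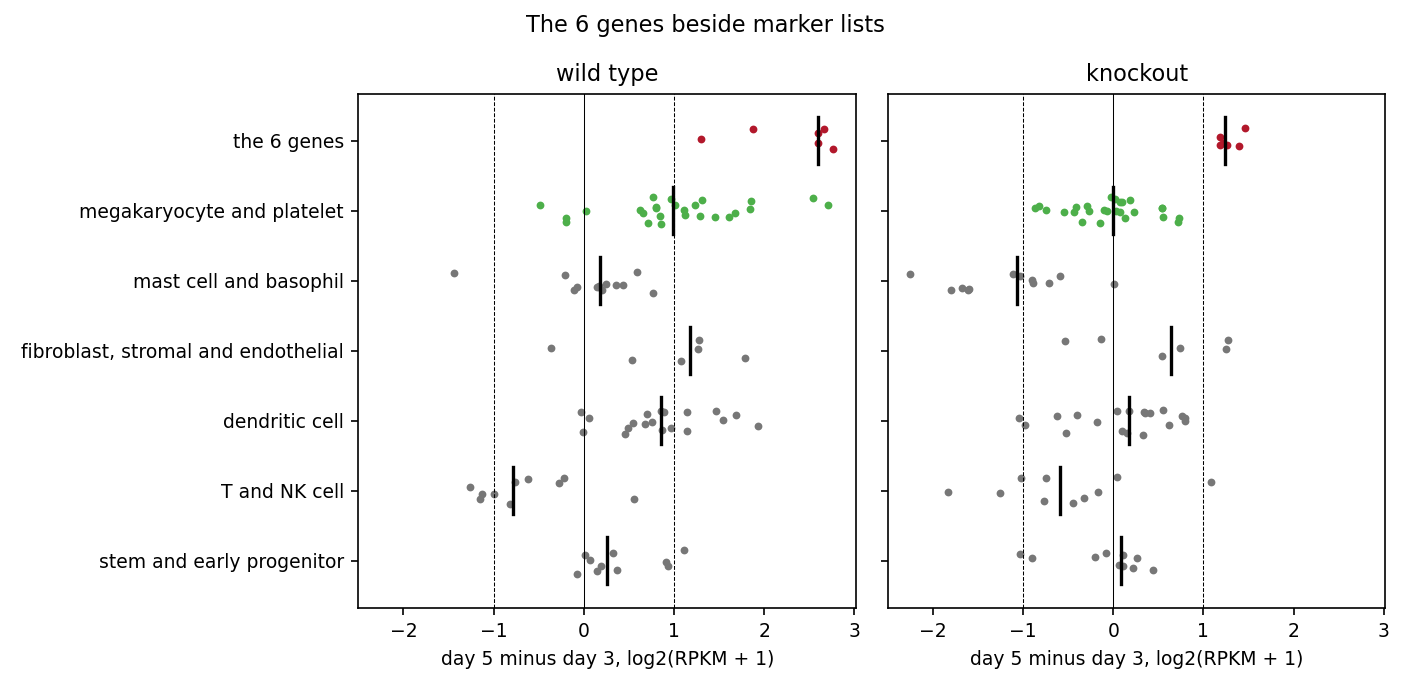
Difference between day 5 and day 3 in log2(RPKM + 1) for the measured genes of each marker list, wild type in one panel and knockout in the other; each point is 1 gene, the bold bars are list medians and the dashed lines mark the size rule. The megakaryocyte and platelet median is 0.99 in wild type and near 0 in the knockout, and the mast cell and basophil median is 0.18 and -1.07.

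Among themselves the 6 genes were compared by the Euclidean distance between centred log2 profiles over the 4 libraries. Nrgn, Slc6a4, Ctla2a and Ctla2b lay within 0.562 of each other, with Slc6a4 and Ctla2b nearest at 0.161. Syt13 lay between 0.549 and 0.944 from those 4. Ctnnd2 lay between 0.925 and 1.19 from the same 4, the widest being its distance to Nrgn, and 0.420 from Syt13. Of 11146 genes with at least 20 reads on average, those near the mean profile of the 6 included Col1a2 (0.362), Myl9, Alox12, Ccn2, Fhl1, Tsc22d1, Cd7, Tubb1 and Plxna4 (0.642). Myl9, a myosin light chain gene, stood at 1.88, 2.45, 12.1 and 4.68 RPKM. Alox12 and Tubb1 are among the platelet markers above, and Col1a2 among the stromal ones. With 4 libraries, likeness of profiles is a description.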

How the data were processed

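Polyadenylated RNA from 4 cultures was sequenced. HISAT2, SAMtools and the mm9 build were used, per the submitters' processing notes. The counting tool is not given in the sources used here, nor is the annotation release or the strand setting. The authors deposited RPKM values per gene, per the file headers, with 0 columns left unused. Whole reads, gene lengths and library totals were recovered for all 26026 genes from the steps of the RPKM values (tolerance 0.003 reads). The lowest value of a gene equals 1 read, so either 1 read was added throughout or genes with none were set to it. Differences were taken as log2(RPKM + 1) of the deposited values over genes whose mean across libraries reached 1 RPKM, with a size rule of 1, in Python 3.11.15 with scipy 1.17.1. The genotype effect was fitted with limma 3.58.1 and tested at an adjusted p of 0.05. Intervals are exact at 95%. With 1 library per group, p-values do not set the genotype effect against a spread between replicates. They set it against its change between the days, drawn toward a spread pooled over all tested genes. Code was tested on simulated data.

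The 6 genes and all lists were chosen with earlier results of these data known. Named genes are the 6, the next 3 and those ranked among them by the smaller rise, the 10 nearest by profile, and, per list, up to 4 with the largest difference past the rule plus defining genes; neighbours of the Ctla2 pair were taken by position. Some genes that this rule names are not reported here. Pseudocounts, filters, rescaling and limma settings were varied. A planned quasi-likelihood fit on the recovered reads was not run. Promoter sequences are from RefSeq (GRCm38.p6).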

Additional observations from a re-analysis of the deposited data

Results flagged for a closer look

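For 4 of the 6 genes the knockout library was above wild type at day 3 and below it at day 5 on the log2(RPKM + 1) scale. The differences were 0.25 and -0.95 for Slc6a4, 0.15 and -1.43 for Ctla2a, 0.44 and -0.93 for Ctla2b, and 0.28 and -0.34 for Syt13. The difference between the days was not tested, since each value rests on 1 library per group. The same pair of signs was seen in 2997 of the 11786 measured genes, or 25.4%. For Ctla2a the day 3 value was 0.0069 after rescaling by the median ratio. The day 3 ratio intervals of Slc6a4 (0.939 to 1.90) and Ctla2a (0.853 to 1.50) span 1, and that of Ctla2b does after the same rescaling (0.906 to 1.96). That of Syt13 stayed above 1, on 10 and 26 reads.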

How the results depend on the processing

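None of the 30 log2 differences of the 6 genes changed sign under another pseudocount, filter or scaling. At a mean of at least 5 RPKM, which drops Syt13, 25 of them were available. As a ratio with no RPKM added, the rise of Ctnnd2 was larger in the knockout (2.69) than in wild type (2.65) after rescaling by the median ratio. Values crossed the size rule in 2 cases with 0.1 RPKM added and in 9 with 5 RPKM added. With 5 RPKM added, 4 of the 6 were higher at day 5 in wild type, 1 was in the knockout, and 2 had a rise lower by 1 there. Counts over all genes moved by over 1.5 times, given for 0.1 RPKM added, 5 RPKM added and a mean of at least 5 RPKM: 418, 58 and 106 higher in wild type; 152, 9 and 28 higher in the knockout; 47, 1 and 10 in both; 221, 20 and 40 lower in the knockout at day 3; 648, 106 and 228 at day 5; and 610, 84 and 170 with a smaller rise. A filter of at least 20 reads on average, chosen after seeing the data, gave 30 higher in the knockout and 64 lower at day 3, and rescaling by the median ratio gave 157 lower at day 3. The latter moved the median of all genes from 0.16 to 0.01 for the wild-type rise and from 0.13 to -0.02 for the day 3 difference. The limma genotype effect called 20 genes at a mean of at least 5 RPKM, 19 with an intensity trend, 4 with robust fitting and 708 with voom. The effect of Syt13 was 0.25 with 0.1 RPKM added. The cystatin list median turned from negative to 0.15 in wild type and 0.022 in the knockout at a mean of at least 5 RPKM and at 20 reads, and to 0.0014 in the knockout with no filter. Fewer or more genes enter under those filters; other causes were not tested. A planned quasi-likelihood count fit was not run; voom was the fit made on the recovered reads. No paired analysis was possible because the labels give no replicate numbers and each group has 1 library, so leaving out a library was not possible either. Few reads limit Syt13 most, and having 1 library in each group limits all comparisons.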
